A study of Mus musculus with 2 samples.

Results

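GATA4 occupancy was described around 10 genes of fibroblast growth factor (FGF) signalling in cultured mouse myoblasts, out of 21887 protein coding genes of the same annotation. The genes were taken by name. They are the receptor genes Fgfr1, Fgfr2 and Fgfr4, the receptor adaptor gene Frs2, the inhibitor genes Spry1, Spry2 and Spry4, the phosphatase gene Dusp6, and the transcription factor genes Etv4 and Etv5. A peak was assigned to a gene when its centre lay inside the gene or within 50 kb of it. Chromatin immunoprecipitation sequencing (ChIP-seq) was done with a mixture of 3 GATA4 antibodies in 1 library and with control IgG in 1 other library. GATA4 is a DNA-binding protein with zinc fingers that read GATA sequences. All cells were myoblasts, the proliferating precursors of skeletal muscle, derived from satellite cells of the stock STOCK Myf5tm1Pas/J. That stock carries a targeted allele of the myogenic gene Myf5, also in the IgG sample, and the sources used here do not state its zygosity or the age and number of the animals. Cells of either sample grew in medium with 20% fetal serum and basic FGF (FGF2, 20 ng/ml), so no comparison of cells with and without FGF was made.

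The deposited list held 17539 GATA4 peaks with a median MACS score, the authors' value per peak, of 99.3 and quartiles of 77.7 and 138. A higher score marks a peak ranked higher by the caller, on a scale that the sources used here do not state. There was 1 list and no replicate, and values below therefore carry no error from replication, and no difference was tested. Read counts and values of the IgG library were not used here. Depth is therefore unknown, and a peak cannot be set against its background. Expression was not measured in these files, so neither the cell type nor the activity of a gene could be checked.

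FGFs bind receptor tyrosine kinases at the cell surface together with heparan sulfate. The activated receptor phosphorylates the docking protein FRS2, which recruits the activators of RAS and so starts the ERK kinase cascade. ERK signalling in turn induces its own brakes, the Sprouty proteins and the phosphatase DUSP6, and the ETS transcription factors ETV4 and ETV5, which are widely used as readouts of FGF activity. In satellite cells and myoblasts, FGF signalling is known for favouring proliferation over differentiation, and SPRY1 for the return of satellite cells to quiescence.

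Of the 10 genes, 6 had at least 1 GATA4 peak and 4 had none. The share of 60.0% (exact Clopper-Pearson 95% interval 26.2% to 87.8%, for counting error only) lay close to the 56.8% of all protein coding genes that had a peak under the same rule. With peaks above the list's median score only, 4 of the 10 had a peak, beside 36.8% of protein coding genes. With peaks inside the gene only, 3 had one, beside 21.0%. The genes differed widely among themselves. Dusp6 had 8 peaks, Frs2 7, Fgfr1 and Etv5 4 each, and Fgfr4 and Etv4 2 each, while Fgfr2, Spry1, Spry2 and Spry4 had 0. Together they had 27 peaks, no peak was assigned to more than 1 of the 10 genes, and 15 of the 27 belonged to Dusp6 and Frs2. Across all protein coding genes the median was 1 peak and the upper quartile was 2.

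**Figure D1:**
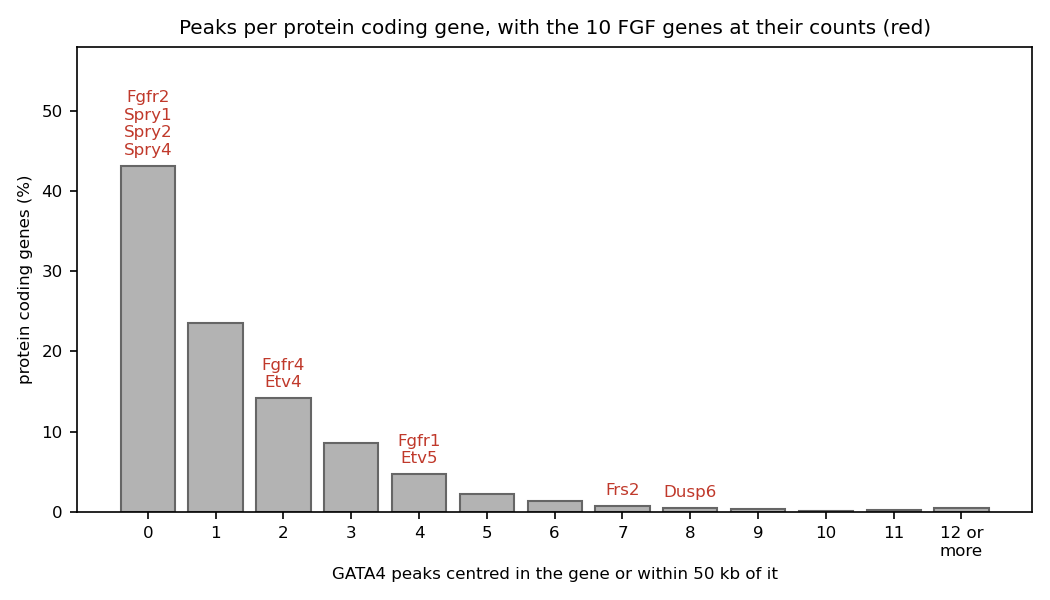
Percentage of all 21887 protein coding genes (bars) by the number of GATA4 peaks centred in the gene or within 50 kb of it, with the 10 FGF genes written in red above their own count. Dusp6 with 8 peaks and Frs2 with 7 stand in the upper tail, and 4 of the 10 genes stand at 0, the most frequent count.

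Dusp6, Frs2 and Etv5 were the genes with a peak over the start of transcription. The promoter table used here gives the 250 bases before and 50 bases after the start, and it has entries for 7 of the 10 genes. Fgfr1, Spry4 and Etv4 have none. A peak lay over a promoter of 3 of these 7 genes, beside 8.38% of the protein coding genes in the table. In all 3 the peak covered the promoter from end to end. Dusp6 and Frs2 lie on chromosome 10, which had 12.8 peaks per Mb against 7.21 over the 19 autosomes. The share of genes with a peak over a promoter was not read for that chromosome alone. The 3 promoters are shown because the peaks lie on them. That of Spry1 is shown beside them as a feedback gene with no peak in its window. The sequences are RefSeq's for GRCm38, each written 5′ to 3′ on the strand of its gene. Capitals mark matches to the motifs searched on either strand.
Dusp6 promoter, chr10:99262981-99263280, plus strand, under a peak: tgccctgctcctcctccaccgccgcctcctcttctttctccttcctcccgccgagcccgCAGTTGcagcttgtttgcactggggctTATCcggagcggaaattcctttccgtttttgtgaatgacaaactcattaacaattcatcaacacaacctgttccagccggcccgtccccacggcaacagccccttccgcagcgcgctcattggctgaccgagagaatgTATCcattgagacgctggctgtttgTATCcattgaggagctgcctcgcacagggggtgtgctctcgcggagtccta
Frs2 promoter, chr10:117148425-117148724, minus strand, under a peak: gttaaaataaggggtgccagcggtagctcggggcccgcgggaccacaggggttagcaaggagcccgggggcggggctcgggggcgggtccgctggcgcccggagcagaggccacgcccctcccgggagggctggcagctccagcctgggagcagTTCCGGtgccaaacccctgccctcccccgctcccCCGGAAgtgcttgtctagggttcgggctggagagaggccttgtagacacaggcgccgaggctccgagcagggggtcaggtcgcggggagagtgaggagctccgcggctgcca
Etv5 promoter, chr16:22439521-22439820, minus strand, under a peak: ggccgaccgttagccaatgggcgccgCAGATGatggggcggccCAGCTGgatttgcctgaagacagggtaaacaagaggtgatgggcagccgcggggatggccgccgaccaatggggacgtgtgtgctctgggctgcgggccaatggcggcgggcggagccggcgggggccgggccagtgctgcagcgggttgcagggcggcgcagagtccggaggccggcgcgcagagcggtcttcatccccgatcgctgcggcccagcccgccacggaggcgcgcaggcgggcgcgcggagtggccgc
Spry1 promoter, chr3:37639697-37639996, plus strand, no peak within 50 kb: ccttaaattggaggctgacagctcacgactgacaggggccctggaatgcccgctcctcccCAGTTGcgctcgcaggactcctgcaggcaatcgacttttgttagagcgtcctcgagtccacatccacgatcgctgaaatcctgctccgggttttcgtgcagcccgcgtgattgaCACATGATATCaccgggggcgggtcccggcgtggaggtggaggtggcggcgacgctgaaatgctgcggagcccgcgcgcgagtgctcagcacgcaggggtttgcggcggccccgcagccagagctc

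None of the 8 promoter entries of the 7 genes held the full GATA motif, searched on either strand as the 4 letters GATA with A or T before them and A or G after them (AGATAA, for example). Of all 32851 promoters of this length, 29.8% held it. The 4 letters GATA alone, which lie within the full motif and were searched after seeing the data, stood in 57.9% of all promoters. Under a peak, they occurred 3 times in the Dusp6 promoter, each time as TATC, and 0 times in those of Frs2 and Etv5. Without a peak over them, the Fgfr2 promoter also held 3, that of Spry1 held 2 that overlap within GATATC, and those of Fgfr4 and Spry2 held 1 each. E-boxes (CANNTG), the type of site that MyoD recognises, were present in 72.3% of all promoters. The Dusp6 promoter held 1, CAGTTG at base 60, and the Etv5 promoter held 2, CAGATG at base 27 and CAGCTG at base 44, counted from the 5′ end of the sequence shown, while the Frs2 promoter held 0. Promoters without a peak held them too, with 2 in Spry1 (CAGTTG at base 61 and CACATG at base 175), 3 in Fgfr2, 2 in Fgfr4 and 1 in Spry2. The Frs2 promoter had 2 matches to CCGGAA, a sequence of many ETS sites, at base 155 as TTCCGG and at base 189. Those of Dusp6 and Etv5 had 0, and the Fgfr4 and Spry2 promoters, without a peak over them, had 1 each. That motif was present in 14.9% of all promoters, and other or shorter ETS sequences were not searched. TGANTCA, the AP-1 motif, was in none of the 8 entries and in 7.81% of all promoters. Only these windows were searched, and the other peaks were described without sequence.

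Dusp6 encodes the phosphatase that inactivates ERK in the cytoplasm and is one of the best known ERK feedback genes. It lies on chromosome 10, 99263231 to 99267489, and is 4.26 kb long. The peak over its promoter (99262660 to 99263539, 880 bp wide) scored 170, higher than 85.7% of the list. A further peak directly upstream (99261492 to 99262564) scored 107 and was separated from it by only 95 bp, and a peak inside the gene (99264348 to 99264986) scored 69.5. These 3 peaks lay side by side around the gene start. The other 5 peaks were all upstream. The highest of them, at 12.3 kb from the start (99250709 to 99251243), scored 213, at percentile 92.6 of the list. Peaks at 20.9, 25.6 and 36.4 kb upstream scored 81.9, 63.5 and 68.1. Another, separated from the 25.6 kb peak by 37 bp, scored 124. No peak lay downstream of the gene within 50 kb.

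The spacing of the Dusp6 peaks was dense. Its window of 104 kb held 76.7 peaks per Mb, against 12.8 per Mb for chromosome 10 as a whole and 7.21 per Mb over the 19 autosomes. At least 8 peaks were found for 328 of the 21887 protein coding genes, and a density at least as high for 0.274%. Chromosome 10 has the highest peak density of the chromosomes, so the same was read among its own 1001 protein coding genes. There, 75.5% of genes had a peak, 39 genes (3.90%) had at least 8 peaks, and 8 genes, Dusp6 included, were at least as dense. These ranks count every listed peak. The gaps of 37 and 95 bp between neighbouring Dusp6 peaks were shorter than the sheared fragments (200 to 500 bp). Whether such neighbours are separate sites was not tested. With peaks above the list's median score only, Dusp6 had 4. Poc1b was the nearest protein coding gene of 1 of the 8 peaks, the one at 36.4 kb, and Dusp6 that of the other 7. Among lncRNA genes, 1 peak lay inside Gm34574 and 2 inside Gm34777, which lie upstream of Dusp6.

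**Figure D2:**
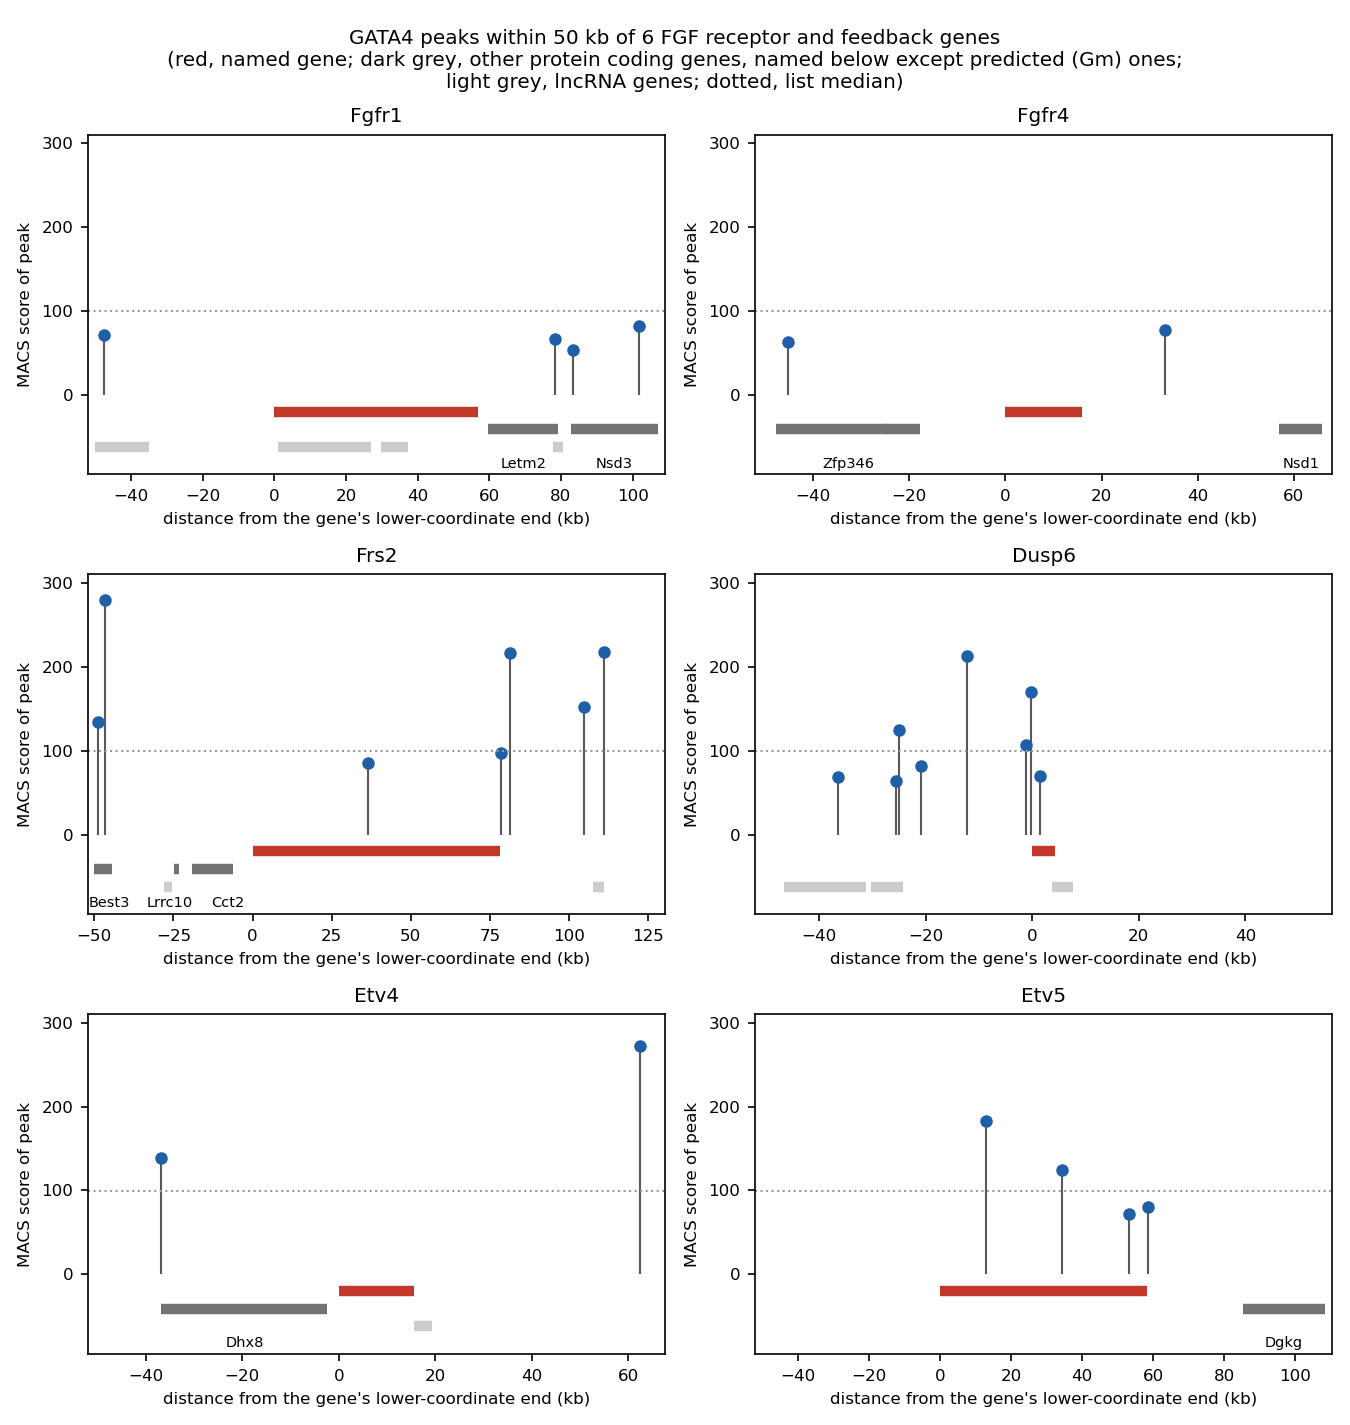
MACS score of each GATA4 peak (blue points on stems) against its distance in kb from the lower-coordinate end of the gene, for the 6 genes with a peak, with the gene in red, other protein coding genes in dark grey and lncRNA genes in light grey; the dotted line is the list median of 99.3. Dusp6 has 3 peaks around its start and 5 more upstream, Etv5 has its 4 peaks at or inside the gene, and the peaks of Fgfr1 and Fgfr4 all lie outside the gene and below the dotted line.

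Frs2 encodes the docking protein that links activated FGF receptors to RAS and ERK. It lies on chromosome 10, 117070127 to 117148474, on the minus strand, so that its start is at the higher coordinate. The peak over its promoter (117148387 to 117148848) was 462 bp wide, narrower than the list's lower quartile (589 bp), and scored 97.0. A wider peak of 1165 bp, 2.94 kb upstream of the start (117150829 to 117151993), scored 216. Peaks at 26.5 and 32.9 kb upstream scored 152.5 and 218, and the 32.9 kb peak lay inside the lncRNA gene Gm40769. A peak inside Frs2, 41.9 kb into the gene (117106214 to 117107002), scored 85.8. The 3 upstream peaks outside the promoter thus scored above the list's upper quartile of 138, and the peaks over the promoter and inside the gene scored below the list median.

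The highest-scoring of all 27 peaks also stood in the Frs2 window but may belong elsewhere. It scored 280, at percentile 97.3 of the list, and lay at 117023279 to 117023970, inside Best3, a bestrophin gene, 46.5 kb beyond the far end of Frs2. Next to it, also inside Best3 and 48.9 kb from Frs2, was a peak with a score of 135. Cct2 and Lrrc10 lie between Best3 and Frs2. Best3 was thus the nearest protein coding gene of both peaks, and which gene they act on was not tested. The window of Frs2 held 39.2 peaks per Mb, 3.06 times the density of chromosome 10. At least 7 peaks were found for 2.23% of all protein coding genes and for 5.39% of those on chromosome 10. On that chromosome, 6.29% of protein coding genes were at least as dense. The count of 7 includes the peaks inside Best3, and Frs2 was the nearest protein coding gene of only 5.

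Etv5 and Etv4 encode related ETS transcription factors of the PEA3 group, and their peaks were placed differently. Etv5 lies on chromosome 16, 22381313 to 22439570, on the minus strand, and all its 4 peaks were at or inside the gene. The peak over its promoter (22439432 to 22440329) scored 80.5. Going into the gene, peaks at 4.93, 24.0 and 45.4 kb from the start scored 71.6, 124 and 182. Among these 3 inner peaks the score was higher farther from the start, while the promoter peak scored above the one at 4.93 kb. The inner peaks were narrow, at 536, 356 and 465 bp against a list median of 745 bp. The second promoter entry of Etv5, at 22438319 to 22438618, was not overlapped by a peak. Exons and introns were not used here, so the inner peaks are placed only as inside the gene.

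Etv4 lies on chromosome 11, 101769747 to 101785310, and had no peak inside the gene or within 10 kb. A peak 36.8 kb away on the lower-coordinate side (101732606 to 101733193) had a score of 138. It covered the promoter of Dhx8, an RNA helicase gene, and was far closer to that gene. A peak on the higher-coordinate side, at 46.9 kb, scored 272, at percentile 96.9, and was 1162 bp wide (101831661 to 101832822). It lay between Etv4 and Meox1, a homeobox gene of the somites, which was 45.3 kb away and so slightly nearer. Neither peak had Etv4 as its nearest protein coding gene.

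None of the 3 receptor genes had a peak inside the gene or within 10 kb, where 33.3% of all protein coding genes had one. Within 50 kb, Fgfr1 had 4 peaks, a count reached by 10.4% of protein coding genes, Fgfr4 had 2, reached by 33.3%, and Fgfr2 had 0. All 6 of these peaks scored below the list median. Fgfr1, on chromosome 8 at 25518759 to 25575718, encodes a main FGF receptor of myoblasts. Its nearest peak was 21.5 kb away on the higher-coordinate side and scored 65.9 (25596834 to 25597547). That peak lay inside Letm2, a mitochondrial membrane protein gene, and also inside the lncRNA gene D830025C05Rik. Peaks at 26.4 and 44.8 kb on that side scored 53.3 and 82.0 and lay inside Nsd3, a histone methyltransferase gene. The remaining peak was on the other side at 47.4 kb, with a score of 71.6, and lay inside the lncRNA gene Gm31045. None of the 4 was nearest to Fgfr1 among protein coding genes. The peak with a score of 53.3 was at percentile 1.10 of the list.

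Fgfr4, on chromosome 13 at 55152818 to 55168759, encodes the receptor known for its part in muscle regeneration. It had a peak 17.3 kb beyond its far end with a score of 77.5 (55185731 to 55186448), for which Fgfr4 was the nearest protein coding gene. A peak 45.1 kb upstream scored 62.9 and lay inside Zfp346, a zinc finger gene (55107302 to 55108085). Both scored below the list's lower quartile of 77.7. Fgfr2, on chromosome 7 at 130162451 to 130266808, had no peak within 50 kb or 100 kb. Its nearest was 201 kb away on the upstream side, and only 19.1% of protein coding genes were farther from a peak.

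All 3 Sprouty genes lacked a peak. The Sprouty proteins are cytoplasmic inhibitors that block receptor signalling to ERK. Spry4, on chromosome 18 at 38586247 to 38601347, had its nearest peak 68.3 kb away with a score of 67.9. For Spry1, on chromosome 3 at 37639947 to 37644599, the nearest was at 80.3 kb on the upstream side with a score of 124. For Spry2, on chromosome 14 at 105891947 to 105896819, it was at 103 kb on the upstream side with a score of 71.6. Of all protein coding genes, 43.2% had no peak within 50 kb and 30.1% had none within 100 kb. Chromosome 14 has the lowest peak density of the autosomes, at 3.38 per Mb. Spry1 and Spry2 are short, 4.65 and 4.87 kb, so their windows of 105 kb were about as long as that of Dusp6, which held 8 peaks.

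**Figure D3:**
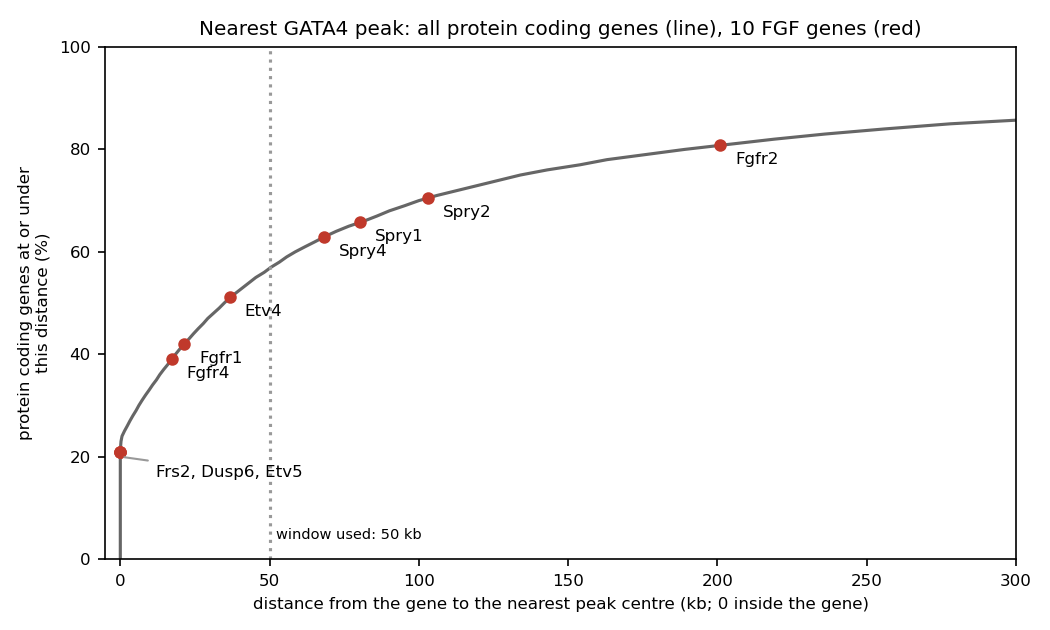
Percentage of protein coding genes whose nearest peak centre lies at or under a given distance in kb (grey line; 0 means inside the gene), with the 10 FGF genes as red points and the 50 kb limit dotted. Frs2, Dusp6 and Etv5 sit at 0, Fgfr4, Fgfr1 and Etv4 at 17.3, 21.5 and 36.8 kb, and the Sprouty genes and Fgfr2 between 68.3 and 201 kb.

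The 27 peaks as a group had a median score and width near those of the whole list. Their median score was 97.0 against 99.3 for the list, and 13 of 27 were above the list median and 8 above its upper quartile. They ranged from 53.3 to 280. Their median width was 768 bp against 745 bp. By position, 5 were inside the gene, 10 were inside or within 10 kb, and 17 were farther away. The assigned gene was the nearest protein coding gene for 17 of the 27, and 11 lay inside another gene. Neither count was set beside a share over all peaks, so whether they are usual is not known. At the 50 kb limit, the outermost peak counted was at 48.9 kb from Frs2 (score 135), and the closest peak left out was at 52.6 kb from Frs2 (score 84.1). Etv5 had its next peak at 60.5 kb with a score of 245. Of the 27 scores, 22 occurred more than once in the list, in which 83.7% of all 17539 peaks shared a score with another. The score of 124 at Dusp6 and Etv5 was shared by 487 peaks and that of 97.0 at Frs2 by 659, so such peaks have the same rank.

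Other genes of the FGF pathway were counted in the same way, from a list of 38 genes grouped by role. Of these 38, 22 had a peak within 50 kb (57.9%, exact 95% interval 40.8% to 73.7%), close to the 60.0% of the 10 genes and the 56.8% of all protein coding genes. Among 9 ligand genes, 6 had a peak. The highest-scoring were at Fgf5 (198 at 13.9 kb), Fgf7 (109, inside the gene) and Fgf6, a ligand of skeletal muscle (96.5 at 32.8 kb). Of 5 other receptor and co-receptor genes, Klb, the co-receptor for endocrine FGFs, had 5 peaks with a top score of 84.1. Flrt2, which encodes a membrane protein that binds FGF receptors, had 8 peaks with a top score of 165, while Fgfr3, Fgfrl1 and Flrt3 had none.

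Among the 14 genes of adaptors and the ERK cascade, 9 had a peak. The highest scores were near Ptpn11, the phosphatase SHP2 (277 at 44.9 kb), and Shc1, an adaptor (246 at 6.37 kb), and inside Map2k1, which encodes a kinase that activates ERK (140). Shc1 had the most peaks of this group, 4. Of 10 other feedback genes, 5 had a peak, with top scores of 153 each at Spred1 and Spred2, relatives of Sprouty, and Dusp4, a nuclear ERK phosphatase. Dusp5, Dusp7, Etv1, Il17rd and Spry3 had none. Within 10 kb, 3 of the 10 FGF receptor and feedback genes and 13 of these 38 genes had a peak, against 33.3% of all protein coding genes.

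**Figure D4:**
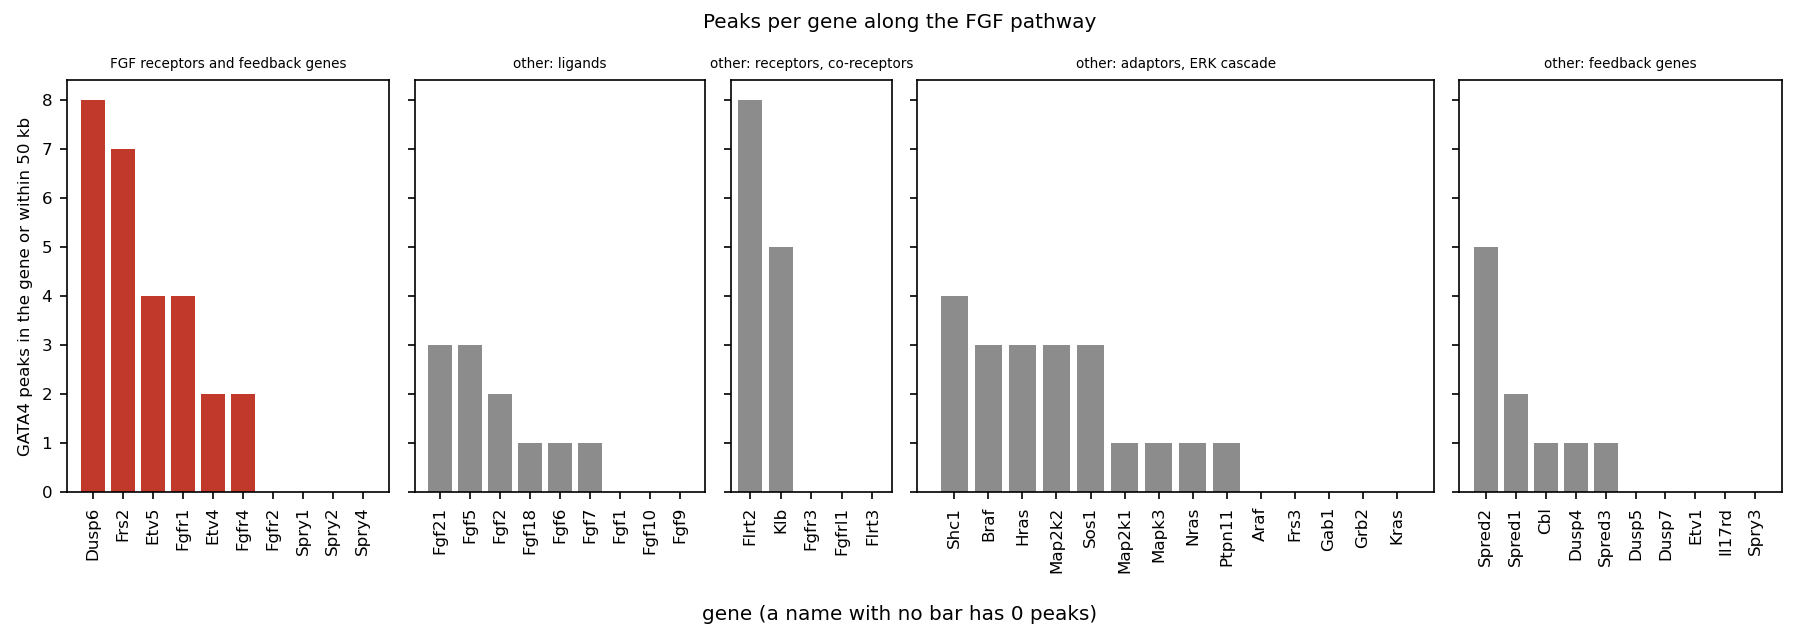
Number of GATA4 peaks centred in each gene or within 50 kb of it, for the 10 FGF receptor and feedback genes (red) and 38 other FGF pathway genes (grey) by role. Dusp6 and Flrt2 have 8 peaks each and Frs2 7, no other gene shown has more than 5, and every panel includes genes with 0.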

How the data were processed

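GATA4 and IgG chromatin of cultured myoblasts was fixed with 1% formaldehyde, sheared to between 200 and 500 bp and sequenced as paired reads of 150 bp, per the labels' protocols. CASAVA 1.8 and Bowtie were used with build GRCm38 (mm10), per the submitters' processing notes, and peaks were called with MACS in Galaxy, per the file header. The sources used here do not state the MACS version, its threshold, duplicate handling or use of the IgG library. A list of peaks with a MACS score per peak was deposited, assigned by its name to the GATA4 sample.

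Starts were made 1-based. Peak centres were assigned to RefSeq genes of GRCm38.p6, and all 10 genes and the 38 pathway genes matched by symbol. The background was the share of 21887 protein coding genes on chromosomes with peaks, each counted under the same rule. Chromosome densities leave out the first 3 Mb. Strand was read from the promoter table, in which all 1839 overlapping promoter pairs of opposite strands held the same letters. Counting was tested on simulated data. Python 3.11.15, pandas 2.3.3 and scipy 1.17.1 were used. The genes, lists and motifs were chosen with earlier results of these data known. All 10 genes are named, with other genes where a peak lies in or nearer to them, and up to 3 pathway genes per role by top score. Pathway genes listed without a peak were named after their values were seen. Further genes of the planned pathway list are not reported here.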

Additional observations from a re-analysis of the deposited data

How the results depend on the processing

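No paired analysis was possible because there was 1 GATA4 library, 1 IgG library and 1 peak list. Among the 10 genes, 6 had a peak, and under the other settings 4 to 8 did, except that 3 did (Dusp6, Frs2 and Etv5) within 10 kb and inside the gene only. The run without chromosome 10 left 8 genes, of which 4 had a peak. The 27 peaks became 10 within 10 kb, 14 within 25 kb, 5 inside the gene, 13 above the median score, 8 above the upper quartile, 17 with the nearest coding gene and, in a run chosen after seeing the data, 12 without chromosome 10. Their median score of 97.0 was 170 among peaks above the list median and 215 among those above the upper quartile, by construction, and 79.0 to 107 otherwise. The share of all genes with a peak, 56.8%, was 33.3% within 10 kb, 44.3% within 25 kb, 69.9% within 100 kb, 21.0% inside the gene, 36.8% above the median score, 19.9% above the upper quartile, 48.7% over all genes of the table and 55.9% without chromosome 10. That share was not computed for the setting with the nearest coding gene. Of the 38 pathway genes, 22 had a peak, 13 within 10 kb and 12 above the median score. Wider windows and lower limits give more peaks by construction. With 1 list, no IgG values and no read depth, neither a missing peak nor a low score can be given an error.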

Other observations

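Promoters lying wholly inside a GATA4 peak, such as those of Dusp6, Frs2 and Etv5, were set beside promoters that no peak touched, with no test. The full GATA motif was present in 318 of the 1308 promoters inside a peak (24.3%), against 30.2% of the 30847 promoters without one. E-boxes (60.2% against 73.0%), the 4 letters GATA alone (50.8% against 58.3%) and TGANTCA (7.11% against 7.84%) were also less frequent inside a peak. The ETS letters CCGGAA were present in 37.8% against 13.6%. Of the 7 genes with a promoter entry, they were in 1 of the 3 with a peak over the promoter (Frs2) and in 2 of the 4 without (Fgfr4 and Spry2). The GC content differed as well, with a median of 60.3% against 52.3%, and its part in any of these shares was not tested. The Dusp6, Frs2 and Etv5 promoters had GC contents of 57.3%, 72.0% and 74.0%. Peaks over a promoter had a median score of 85.4 (quartiles 71.6 and 115), against 102 (78.8 and 139) for the 16000 other peaks. With a score of 170, the promoter peak of Dusp6 was above the upper quartile of promoter peaks. The Frs2 peak at 97.0 and the Etv5 peak at 80.5 lay between the quartiles, on opposite sides of the median.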
